A study of Mus musculus with 25 samples.

Results

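The *Hox* genes were taken as all genes whose mouse symbol is *Hox* followed by a cluster letter from a to d and a number, and 39 of the 54752 genes listed in every library met that rule. They lie in 4 clusters of the GRCm38 assembly: 11 members of cluster A on chromosome 6, 10 of cluster B on chromosome 11 between 96194316 and 96368256, 9 of cluster C on chromosome 15 between 102921103 and 103036852, and 9 of cluster D on chromosome 2 between 74668310 and 74765142. Their transcript abundance was compared between epididymal (eWAT) and inguinal (iWAT) white adipose tissue, and between diets and genotypes within each depot.

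*Hox* genes encode homeodomain transcription factors. Along each cluster their order follows the order in which they are used along the embryo's head-to-tail axis, low paralogue numbers toward the head and high numbers toward the tail, and connective tissue cells of the adult keep much of this record of their origin. White adipose depots, which arise from different territories of the mesoderm, are known to carry different *Hox* profiles, and preadipocytes keep them in culture.

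All mice were male C57BL/6N. Wild type (WT) and *Acod1*-/- (KO, the C57BL/6N-Acod1em1(IMPC)J/J allele, a constitutive deletion of the gene for the itaconate-producing enzyme) littermates came from heterozygous breeding pairs. From 5 weeks of age they received a chow diet (ND) or a high-fat diet (HFD) with 60% of calories from fat. The samples comprised 4 eWAT and 3 iWAT libraries of ND-fed WT mice, 5 and 5 of HFD-fed WT mice, and 5 and 3 of HFD-fed *Acod1*-/- mice. The labels give 16 weeks of feeding for all libraries except iWAT KO HFD 2 and 3, with 17 and 18 weeks. There was no ND-fed *Acod1*-/- group, so genotype was compared under HFD only. RNA came from bulk depot tissue, and how much of each depot was taken is not stated in the sources used here. Labels do not say whether the eWAT and iWAT libraries of the same number came from the same mouse.

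Counted reads per library ran from 31.41 to 52.34 M, of which the *Hox* genes took 8795 to 29059. Library numbers in the column headers fall into 2 series, and all 7 ND libraries belong to the second, which holds only 1 library of each HFD group (eWAT WT HFD 5, eWAT KO HFD 5, iWAT WT HFD 5 and iWAT KO HFD 3), so diet and series largely cannot be told apart. *Acod1* itself had at most 9 counts in any library and so does not check the genotype labels. The 5 adipocyte markers (*Adipoq*, *Plin1*, *Lep*, *Cidec* and *Lpl*) summed to at least 14090 CPM (counts scaled to the same total in every library) throughout. Some libraries held RNA of other tissues: 7 epididymal genes summed to 1155 CPM in eWAT WT ND 2, 281 CPM in eWAT KO HFD 1 and 113 CPM in eWAT KO HFD 5 but to at most 0.733 CPM in iWAT, 5 epithelial keratin and adhesion genes to 529 CPM in iWAT KO HFD 2, 5 lymphocyte genes to between 403 and 616 CPM in ND-fed iWAT against 1.5 to 43.9 CPM elsewhere, and 5 muscle genes to 7105 CPM in iWAT WT ND 1. Fewer cells of a type and less RNA per cell cannot be told apart in these bulk libraries.

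Promoter sequence was at hand for 22 of the 39 members, as 24 RefSeq windows of GRCm38.p6 from 250 bases before to 50 bases after a start. Only the 250 bases before the start were measured and searched for motifs. In these the median GC content was 58.6% in the *Hox* windows and 52.4% in all 32851 windows. The median number of CpG dinucleotides was 12.5 against 6.0. Upstream sequences are shown for some genes of the depot and diet results whose windows overlapped no annotated exon. *Hoxc10* and *Hoxb9* had no window, and that of *Hoxc4* lay within an exon. The first is *Hoxa5*, a paralogue from the middle of the axis that was more abundant in eWAT. *Hoxa9* and *Hoxa10* (its start nearer to *Hoxa9*) follow, neighbours that were abundant in iWAT and low in eWAT. *Hoxb8* and *Hoxd8* are shown last, since both were lower in eWAT of HFD-fed mice. Capitals mark TATAAA or CCAAT on either strand, all sequences read 5′ to 3′ on the gene's strand, and each ends at the base before the start.

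*Hoxa5*, chr6:52204588-52204837, minus strand: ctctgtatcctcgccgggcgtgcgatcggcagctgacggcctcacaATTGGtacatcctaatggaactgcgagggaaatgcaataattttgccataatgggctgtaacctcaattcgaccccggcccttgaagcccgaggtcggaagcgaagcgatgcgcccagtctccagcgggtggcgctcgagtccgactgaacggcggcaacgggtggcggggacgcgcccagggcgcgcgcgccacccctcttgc

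*Hoxa9*, chr6:52227371-52227620, minus strand: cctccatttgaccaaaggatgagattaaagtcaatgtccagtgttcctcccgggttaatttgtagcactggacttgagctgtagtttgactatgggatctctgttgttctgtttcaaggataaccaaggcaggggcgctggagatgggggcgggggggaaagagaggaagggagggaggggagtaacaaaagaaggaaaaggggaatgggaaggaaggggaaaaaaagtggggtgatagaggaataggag

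*Hoxa10*, chr6:52234940-52235189, minus strand: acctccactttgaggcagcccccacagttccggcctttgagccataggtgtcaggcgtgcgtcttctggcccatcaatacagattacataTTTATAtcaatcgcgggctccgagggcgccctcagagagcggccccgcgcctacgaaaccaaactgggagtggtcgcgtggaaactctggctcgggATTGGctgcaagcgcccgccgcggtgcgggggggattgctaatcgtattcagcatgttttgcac

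*Hoxb8*, chr11:96281655-96281904, plus strand: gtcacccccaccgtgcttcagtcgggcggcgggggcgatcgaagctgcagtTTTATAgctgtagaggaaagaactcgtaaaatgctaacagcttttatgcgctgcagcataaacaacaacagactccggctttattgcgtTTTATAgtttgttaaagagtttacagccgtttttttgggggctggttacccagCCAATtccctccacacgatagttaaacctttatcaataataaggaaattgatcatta

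*Hoxd8*, chr2:74704365-74704614, plus strand: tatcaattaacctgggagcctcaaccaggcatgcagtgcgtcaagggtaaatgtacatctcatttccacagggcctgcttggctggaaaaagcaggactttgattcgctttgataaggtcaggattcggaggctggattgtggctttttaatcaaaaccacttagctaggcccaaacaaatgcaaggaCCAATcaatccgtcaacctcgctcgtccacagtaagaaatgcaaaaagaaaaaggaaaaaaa

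TATAAA was present in 4 of the 24 *Hox* windows, those of *Hoxa10*, *Hoxb8*, *Hoxd4* and *Hoxd13*, and in 12.4% of all windows. CCAAT was found in 14 of 24 and in 33.9% of all. The other window of *Hoxa10*, not shown, held neither TATAAA nor CCAAT. The composite site that HOX and PBX proteins bind together, searched as TGATTNAT on both strands, was in the windows of *Hoxa2* and *Hoxd11* only, and in 2.83% of all windows. These matches describe letters in a window and no factor's binding.

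The positional code was first read as which members were detected. With detection set at more than 3 counts in a library, 22 of the 39 members were detected in every eWAT library and 26 in every iWAT library, against 28.3% and 28.4% of all genes. In eWAT these took in 7 members of cluster A, the last of them *Hoxa9*, and *Hoxb2* to *Hoxb9*, *Hoxc4* to *Hoxc9*, and *Hoxd8* and *Hoxd9*. In iWAT the same members were detected, together with *Hoxa6*, *Hoxa10*, *Hoxc10* and *Hoxd10*. By this rule, which asks for 14 eWAT but 11 iWAT libraries, clusters A, C and D reached 1 paralogue group further toward the tail end than in eWAT. For cluster D this rested on the floor. *Hoxd10* exceeded 10 counts in only 9 of 11 iWAT libraries, and at that floor cluster D ended at *Hoxd9* in both depots. *Hoxa9* exceeded 10 counts in 10 of 14 eWAT libraries. Cluster B ended at *Hoxb9* in both depots.

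The remaining members were at the edge of detection or under it. *Hoxb13*, *Hoxc12*, *Hoxc13*, *Hoxd12* and *Hoxd13* exceeded 3 counts in no library of either depot, nor did *Hoxb1* in eWAT or *Hoxa13* in iWAT. *Hoxa11*, *Hoxc11* and *Hoxd11*, which pattern the limbs and the hind end of the trunk, exceeded it in 3, 3 and 1 of 14 eWAT libraries and in 2, 4 and 1 of 11 iWAT libraries, with at most 29 counts. *Hoxa6*, *Hoxa10*, *Hoxc10* and *Hoxd10*, detected throughout iWAT, exceeded 3 counts in 13, 11, 12 and 10 of the 14 eWAT libraries. *Hoxa13* did so in 2 eWAT libraries and *Hoxb1* in 1 iWAT library. *Hoxd1* was above 3 counts in 7 eWAT and 2 iWAT libraries and *Hoxd3* in 13 and 9. *Hoxd4* was listed at 0 everywhere, and 52.3% of its exonic bases are shared with *Hoxd3* and *Gm28230* on the same strand. How reads on shared bases were assigned is not given, and the part of this overlap in the count of 0 was not tested. *Hoxd3* shares 62.3% of its exonic bases in the same way.

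Levels between genes were compared in fragments normalised for transcript length and for the counted reads of the library (FPKM). *Hoxc8*, a paralogue of the trunk, was the most abundant member in both depots, with 26.6 to 143 FPKM in eWAT (median 73.6) and 44.6 to 124 in iWAT (median 62.3). It made up 28.4 to 58.9% of the summed *Hox* FPKM in eWAT libraries and 32.7 to 50.1% in iWAT libraries. Next in eWAT by median were *Hoxa7* (10.2 FPKM), *Hoxc4* (9.81), *Hoxc6* (9.45), *Hoxd8* (9.18) and *Hoxa5* (8.47), whose ranges overlapped throughout. In iWAT they were *Hoxc10* (11 FPKM), *Hoxa7* (9.93), *Hoxc6* (9.69), *Hoxc9* (6.99) and *Hoxd8* (6.78), also with overlapping ranges. *Hoxc10*, second in iWAT, had a median of 0.244 FPKM in eWAT.

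Among the head-end paralogues *Hoxa2* and *Hoxa3* had medians of 0.601 and 0.865 FPKM in eWAT and of 0.586 and 0.807 FPKM in iWAT. *Hoxb2* and *Hoxb3* had higher medians, of 2.06 and 1.52 FPKM in eWAT and of 1.545 and 1.501 FPKM in iWAT. Paralogues 4 to 8 gave most of the *Hox* signal, 86.0 to 93.5% of the summed FPKM in eWAT and 71.5 to 81.6% in iWAT. Cluster C was the main source in either depot, at medians of 64.2% and 62.4%.

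**Figure D1:**
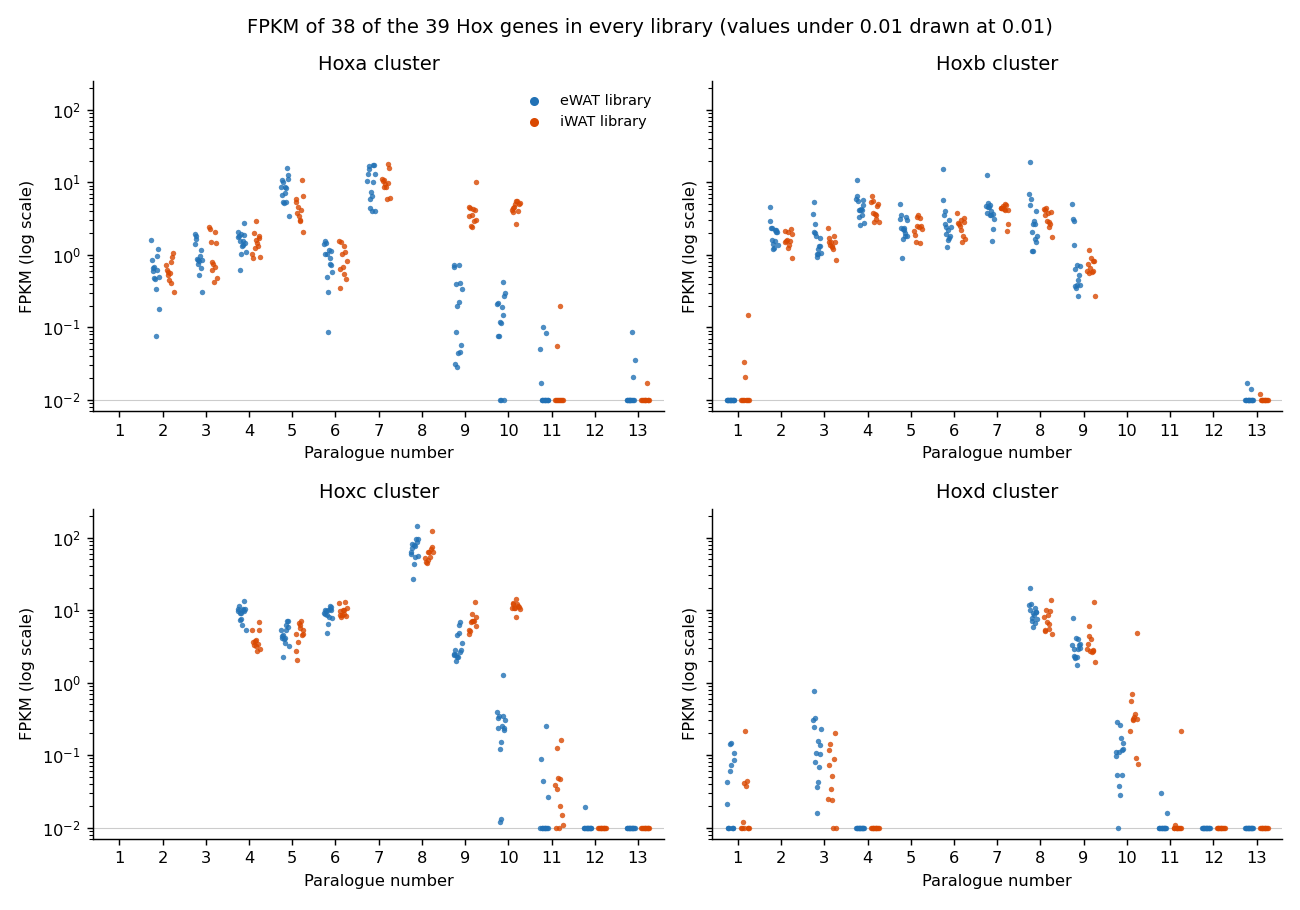
FPKM of 38 of the 39 *Hox* members on a log axis, against paralogue number, 1 panel per cluster and 1 point per library of eWAT or iWAT, with values under 0.01 drawn at 0.01. *Hoxc8* led in both depots, whereas *Hoxa10* and *Hoxc10* had medians of 4.54 and 11 FPKM in iWAT and of 0.132 and 0.244 FPKM in eWAT.

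The clearest separation of the depots lay in the tail-end paralogues. Paralogues 10 to 13 made up 0.037 to 1.09% of the summed *Hox* FPKM in the 14 eWAT libraries and 6.42 to 14.4% in the 11 iWAT libraries, with no overlap. Within iWAT this share was 9.56 to 12.3% in ND-fed WT, 7.07 to 14.4% in HFD-fed WT and 6.42 to 11.3% in HFD-fed *Acod1*-/- mice. In eWAT it was 0.300 to 0.446%, 0.037 to 0.462% and 0.212 to 1.09%. The ranges of the 3 conditions overlapped within each depot, while those of the depots were apart in every condition.

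**Figure D2:**
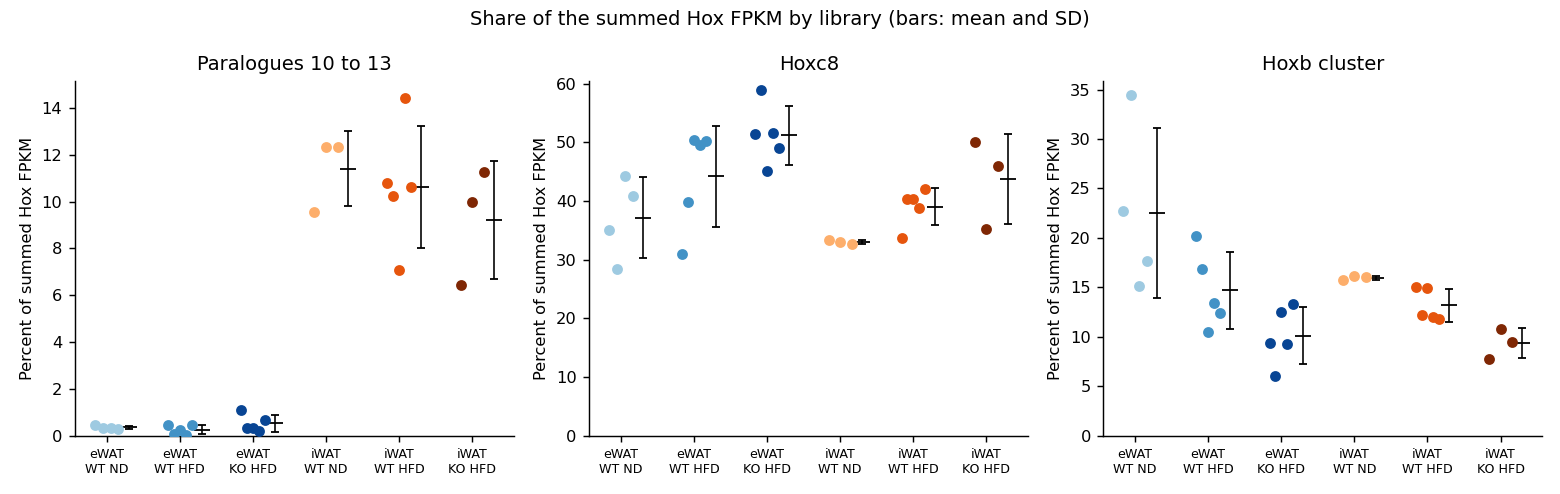
Share of the summed *Hox* FPKM in percent, by library, of paralogues 10 to 13, of *Hoxc8* and of cluster B, with the mean and SD of each group. The share of paralogues 10 to 13 separated all 14 eWAT from all 11 iWAT libraries. The share of cluster B did not overlap between conditions in iWAT, while in eWAT that of HFD-fed WT overlapped both other groups. Shares were not tested.

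Depots were then tested on counts with edgeR across 15034 genes, of which 24 were *Hox* members (a mean of at least 1 CPM over all libraries), and a difference was called at an adjusted p below 0.1. Just inside this filter was *Hoxa2* (a mean of 1.15 CPM), and just outside were *Hoxa6*, *Hoxd10* and *Hoxd3* (0.790, 0.699 and 0.565 CPM). Averaged over the 3 conditions, 7 of the 24 members were called, 3 higher and 4 lower in eWAT, where 27.3% of all tested genes were called (15.6% higher and 11.8% lower). The share of members called was therefore close to that of genes at large, and the median difference was 0.11 on the log2 scale for the members and 0.0012 for all genes. The largest differences among the members were those of *Hoxa9*, *Hoxa10* and *Hoxc10*, of 16.2-fold, 31.2-fold and 42.3-fold. *Hoxa10* and *Hoxc10* passed the filter only through iWAT (means of 14.9 and 21.5 CPM, against 0.501 and 0.579 CPM in eWAT). Some difference between depots was thus fixed for them by the filter. How such sizes are spread over all genes was not examined.

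*Hoxc10* (chromosome 15, 102966796 to 102971893, plus strand), used in the lumbar region and the hindlimb, separated the depots most. In iWAT it measured 18.2, 21.4 and 22.7 CPM in ND-fed WT mice, 20.0, 21.3, 15.7, 28.2 and 22.5 CPM in HFD-fed WT mice and 22.7, 21.5 and 20.7 CPM in *Acod1*-/- mice. In eWAT it measured 0.680, 0.563, 0.453 and 0.681 CPM, then 0.213, 0.0208, 0.297, 0.0258 and 0.503 CPM, and 2.56, 0.804, 0.463, 0.428 and 0.587 CPM in *Acod1*-/- mice. No eWAT library came near the lowest iWAT library. The difference was -5.40 ± 0.34 (log2, SE; edgeR adjusted p = 4.5e-10), and 8.70% of its exonic bases overlap *Hoxc5*, whose transcripts run through it on the same strand.

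*Hoxa10* (chromosome 6, 52231197 to 52240854, minus strand), a regulator of the reproductive tract and the lumbar spine, was at 12.1, 13.2 and 12.7 CPM in iWAT of ND-fed WT mice, at 14.5, 17.1, 9.02, 18.5 and 17.8 CPM in HFD-fed WT mice and at 13.5, 16.5 and 18.0 CPM in *Acod1*-/- mice. eWAT gave 0.627, 0.654, 0.252 and 0.253 CPM, then 0.354, 0.0208, 0.388, 0.00 and 0.643 CPM, and 1.47, 0.574, 0.899, 0.00 and 0.957 CPM. Again no library overlapped, and the difference was -4.96 ± 0.47 (edgeR adjusted p = 2.01e-07).

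*Hoxa9* (chromosome 6, 52223100 to 52231089, minus strand), known from blood progenitors as well as from the lumbar trunk, was the neighbour with more residual signal in eWAT. It reached 3.51, 3.65, 0.176 and 2.24 CPM in eWAT of ND-fed WT mice, 0.449, 0.146, 1.14, 0.258 and 1.29 CPM in HFD-fed WT mice and 4.23, 0.306, 2.37, 0.321 and 1.89 CPM in *Acod1*-/- mice. iWAT held 16.9, 23.1 and 24.4 CPM, then 13.5, 21.2, 14, 24.5 and 16.1 CPM, and 24, 56.7 and 18.0 CPM. Values varied widely among eWAT libraries, yet the highest stayed below the lowest iWAT library, and the difference was -4.02 ± 0.45 (edgeR adjusted p = 2e-06).

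*Hoxc9* (chromosome 15, 102976439 to 102985099, plus strand), a thoracic paralogue, was lower in eWAT by a smaller amount, with overlapping libraries. Its eWAT values were 5.53, 5.25, 6.90 and 4.96 CPM under ND, 5.34, 5.10, 11.3, 5.58 and 12.3 CPM under HFD and 15.7, 20.3, 6.56, 6.76 and 8.55 CPM in *Acod1*-/- mice. Its iWAT values were 11.4, 10.3 and 12.5 CPM, then 16.2, 22.4, 17.5, 17.5 and 16.8 CPM, and 32.3, 19.8 and 15.3 CPM. The groups were apart in both WT conditions and overlapped in *Acod1*-/- mice, and the averaged difference was -1.05 ± 0.19 (edgeR adjusted p = 0.000552).

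The 3 members that were higher in eWAT have low or middle paralogue numbers. *Hoxc4* (chromosome 15, 103018934 to 103036852, plus strand), of the neck and upper thorax, gave 24.1, 23.2, 29.8 and 24.1 CPM in eWAT under ND, 17.3, 18.4, 23.8, 16.7 and 27.4 CPM under HFD and 26.7, 30.1, 35.4, 26.7 and 13.5 CPM in *Acod1*-/- mice. iWAT gave 12, 8.35 and 8.22 CPM, then 9.52, 8.64, 10.1, 7.19 and 8.58 CPM, and 14.1, 17.7 and 7.83 CPM. The WT groups did not overlap, the *Acod1*-/- groups did through eWAT KO HFD 5, and the difference was 1.22 ± 0.15 (edgeR adjusted p = 5.24e-06).

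*Hoxa5* (chromosome 6, 52201754 to 52204587, minus strand), which patterns the lower neck and the lung and is expressed in preadipocytes, was higher in eWAT by 0.82 ± 0.24 (edgeR adjusted p = 0.017). It measured 14.9, 11.7, 20.7 and 19.2 CPM in eWAT under ND, 9.40, 9.01, 17.0, 14 and 10.3 CPM under HFD and 16.3, 35.8, 24.1, 21.1 and 6.37 CPM in *Acod1*-/- mice. In iWAT it measured 9.82, 9.15 and 6.97 CPM, then 8.27, 6.83, 5.79, 5.69 and 7.64 CPM, and 21.2, 12.3 and 4.03 CPM. The depots were apart within each diet of WT mice, although neither difference was called there (edgeR adjusted p = 0.13 under ND and 0.157 under HFD). They overlapped within *Acod1*-/- mice, where both depots had 1 low library (eWAT KO HFD 5 and iWAT KO HFD 3, both of the second series).

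*Hoxd8* (chromosome 2, 74704615 to 74707933, plus strand) was higher in eWAT by 0.38 ± 0.15 (edgeR adjusted p = 0.0788), a call that was lost in 11 of 34 alternative settings. Its values of 29.7, 50.1, 27.7 and 33.4 CPM in eWAT and of 19.5, 13.2 and 13.8 CPM in iWAT did not overlap under ND. In HFD-fed WT mice, at 17.9, 20.1, 25.7, 16.5 and 24.5 CPM against 27.2, 19.7, 23.7, 15.4 and 17.2 CPM, they did, and in *Acod1*-/- mice they were 30.4, 22.2, 26.2, 25.5 and 20.8 CPM against 27.4, 38.5 and 13.3 CPM. *Hoxd9*, its neighbour, was not called.

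**Figure D3:**
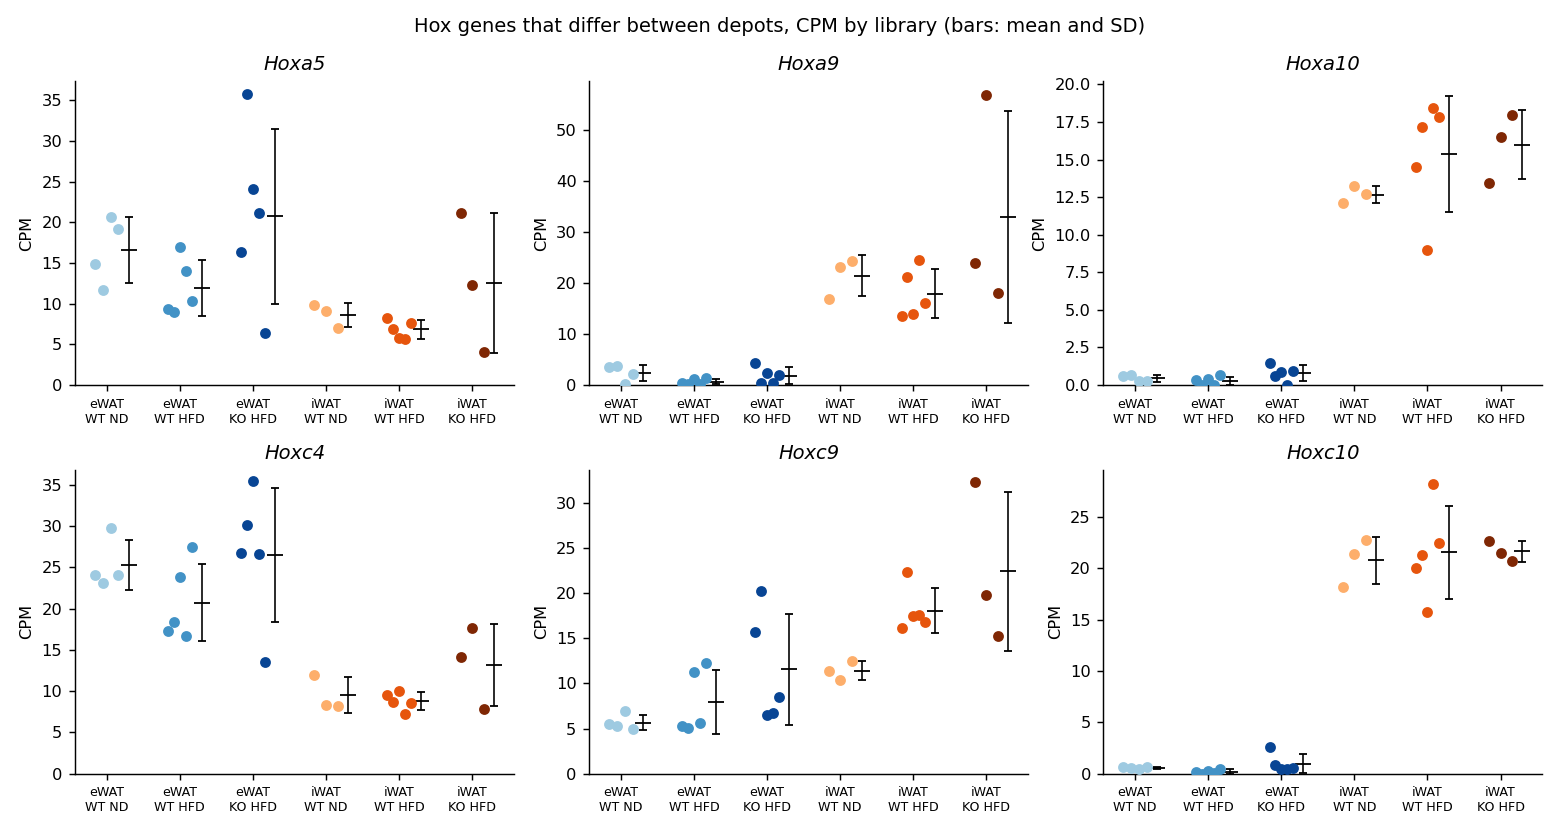
CPM per library, with the mean and SD of each group, of 6 members called between depots in the average over conditions. *Hoxa9*, *Hoxa10* and *Hoxc10* separated every eWAT from every iWAT library, whereas *Hoxa5*, *Hoxc4* and *Hoxc9* overlapped in *Acod1*-/- mice.

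Without the 4 libraries with the highest epididymal or epithelial marker sums (eWAT WT ND 2, eWAT KO HFD 1 and 5, iWAT KO HFD 2), 7 members were again called in the average, 3 higher and 4 lower, beside 20.6% of all genes. The libraries kept were not free of such RNA. Epididymal markers summed to 51.5 CPM in eWAT WT ND 3, and epithelial markers to 66.7 and 63.6 CPM in eWAT WT ND 1 and 4. eWAT also held mesothelium, whose 5 markers summed to 32.4 to 140 CPM against 0.340 to 7.22 CPM in iWAT, and more macrophage RNA in HFD-fed WT mice (5 markers, 960 to 3125 CPM against 311 to 815 CPM in iWAT). The part of these cells in the depot differences was not tested.

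The stability of the code was read from the depot difference within each condition. *Hoxa9*, *Hoxa10* and *Hoxc10* were lower and *Hoxc4* was higher in eWAT in all 3 conditions, and all 4 were called in each. In the WT conditions none of these calls was lost in an alternative setting that tested the gene. In *Acod1*-/- mice that of *Hoxc4* was lost without iWAT KO HFD 3 (0.73, edgeR adjusted p = 0.131), and a fit of the 2 *Acod1*-/- groups alone called *Hoxc10* but not *Hoxa9*, *Hoxa10* or *Hoxc4*. For *Hoxc10* the log2 difference was -5.11 ± 0.62 in ND-fed WT, -6.62 ± 0.59 in HFD-fed WT and -4.47 ± 0.55 in HFD-fed *Acod1*-/- mice. For *Hoxa10* it was -4.81 ± 0.85, -5.74 ± 0.79 and -4.34 ± 0.77, and for *Hoxa9* -3.15 ± 0.80, -4.75 ± 0.75 and -4.16 ± 0.76. *Hoxc4* held 1.41 ± 0.28, 1.24 ± 0.22 and 1.0 ± 0.26. The interactions of depot with diet and with genotype were called for none of these 4 genes.

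Around this core the profile moved. In ND-fed WT mice 12 of 24 members were called, 8 higher (*Hoxb2*, *Hoxb3*, *Hoxb5*, *Hoxb6*, *Hoxb8*, *Hoxb9*, *Hoxc4* and *Hoxd8*) and 4 lower (*Hoxa9*, *Hoxa10*, *Hoxc9* and *Hoxc10*), where 31.7% of all genes were called (17.5% higher and 14.2% lower). The 8 higher members are a larger share of 24 than the 17.5% of all genes. In HFD-fed WT mice 6 were called, *Hoxc4* higher and *Hoxa9*, *Hoxa10*, *Hoxb5*, *Hoxc9* and *Hoxc10* lower, beside 18.6% of all genes. In HFD-fed *Acod1*-/- mice the calls were *Hoxc4*, *Hoxa9*, *Hoxa10* and *Hoxc10*, beside 3.81% of all genes. Of the 24 members, 17 had a higher estimate in eWAT under ND, 6 in HFD-fed WT and 9 in HFD-fed *Acod1*-/- mice, and 16 did not keep the same direction throughout.

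**Figure D4:**
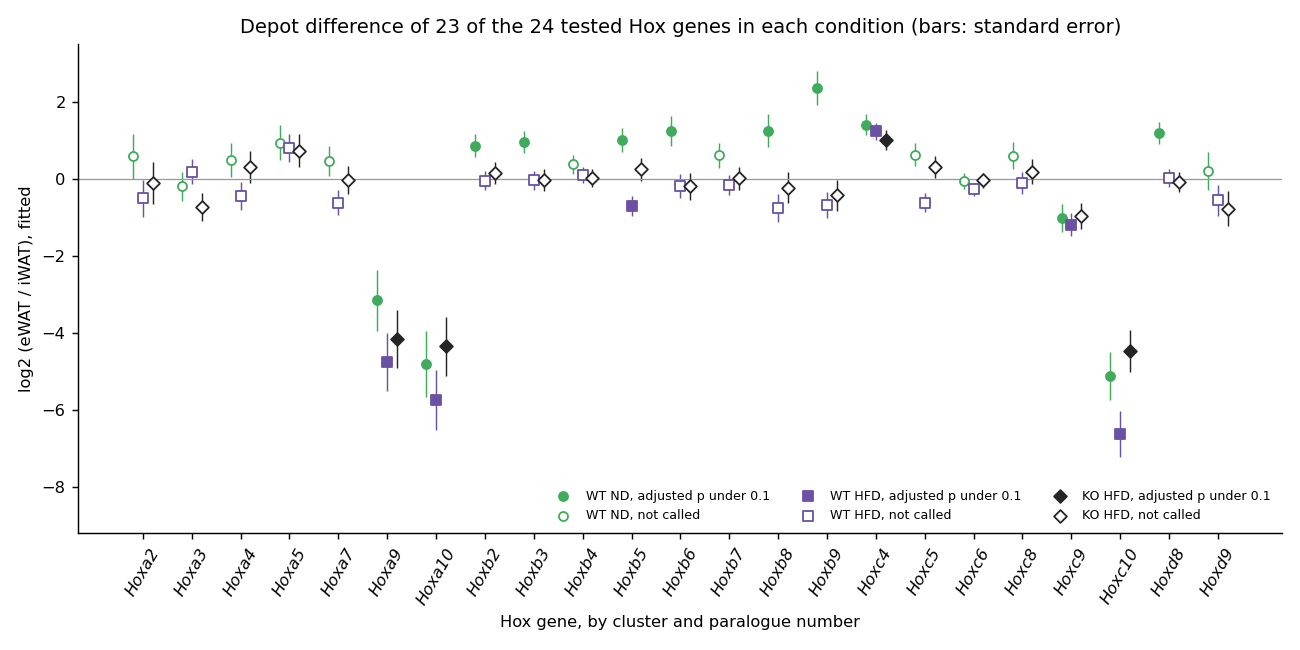
Log2 difference of eWAT against iWAT, with SE bars, for 23 of the 24 tested members in each condition, negative values being lower in eWAT. The tail-end members *Hoxa9*, *Hoxa10* and *Hoxc10* lay at -3.15 or lower in all 3 conditions, and the cluster B members lay above 0 under ND.

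The depot calls under ND rested in part on 1 library. Without eWAT WT ND 2, the library with the most epididymal RNA, 9 of 24 members were called, beside 28.3% of all genes, and without all 4 libraries named above 10 (6 higher and 4 lower), beside 30.4%, *Hoxb2*, *Hoxb6* and *Hoxb8* being lost and *Hoxa5* gained. In HFD-fed WT mice leaving out the 4 libraries gave 10 calls, 2 higher and 8 lower, beside 21.4% of all genes. Within the second series alone, which holds all ND libraries, 14 members were called (10 higher and 4 lower), beside 35.4% of all genes. Within the first series alone 9 were called in HFD-fed WT (2 higher and 7 lower), beside 17.4%, and *Hoxa9*, *Hoxa10*, *Hoxc4* and *Hoxc10* in *Acod1*-/- mice, beside 3.73%.

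Diet was examined next, within each depot. In eWAT of WT mice 10 of 22 tested members were lower under HFD and none was higher, where 51.8% of all 14936 genes were called, 24.8% higher and 26.9% lower. These were *Hoxa3* and *Hoxa7*, *Hoxb2*, *Hoxb3*, *Hoxb4*, *Hoxb5*, *Hoxb6*, *Hoxb8* and *Hoxb9*, and *Hoxd8*, so 7 of the 8 detected members of cluster B fell. The exception, *Hoxb7*, was not called, and no member of cluster C was. The median over the 22 members was -0.81 (log2) and that of all genes -0.04. In 9 of the 10 every HFD-fed library was below every ND-fed library, the exception being *Hoxb5*. How often called genes at large separate in this way was not counted, so this is no trait particular to the members.

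*Hoxb9* (chromosome 11, 96271457 to 96276595, plus strand), the last member of cluster B before the gap to *Hoxb13*, fell most among the tested members. It went from 12, 7.43, 3.6 and 7.78 CPM under ND to 0.874, 1.54, 0.936, 1.03 and 1.91 CPM under HFD, while *Acod1*-/- mice had 1.22, 0.843, 1.39, 0.989 and 1.78 CPM. The change was -2.61 ± 0.37 (edgeR adjusted p = 0.000389). iWAT held 1.38, 1.71 and 1.43 CPM, then 2.95, 1.78, 2.35, 1.52 and 1.52 CPM, and 2.19, 2.15 and 0.727 CPM. ND-fed eWAT was thus the group apart, above all others. *Hoxd3*, which was under the filter and not tested, had the same order in eWAT, with 1.64 ± 0.886 CPM under ND (SD, n = 4) and 0.226 ± 0.137 CPM under HFD (SD, n = 5), and these libraries did not overlap.

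*Hoxb8* (chromosome 11, 96281905 to 96285315, plus strand) showed the same layout. It measured 16.8, 46.3, 13.1 and 15.7 CPM in eWAT under ND, 2.72, 5.10, 7.15, 3.10 and 7.96 CPM under HFD and 7.26, 5.17, 10.9, 4.01 and 4.83 CPM in *Acod1*-/- mice, with 6.53 to 11.6 CPM in WT iWAT. The change under HFD was -2.14 ± 0.44 (edgeR adjusted p = 0.00232). Without eWAT WT ND 2, the highest library, it was -1.54 and still called.

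*Hoxb6* (chromosome 11, 96292476 to 96301569, plus strand) had 10.2, 27.4, 7.10 and 7.94 CPM under ND, 4.87, 4.45, 3.97, 2.61 and 3.30 CPM under HFD and 4.50, 4.06, 6.15, 3.55 and 4.74 CPM in *Acod1*-/- mice. Its change was -1.77 ± 0.36 (edgeR adjusted p = 0.00224). The highest value of *Hoxb2*, *Hoxb3*, *Hoxb4*, *Hoxb5*, *Hoxb6* and *Hoxb8* was in eWAT WT ND 2, the library with the most epididymal RNA. Without it and the 3 other libraries left out above, 10 members were called lower, beside 45.8% of all genes called. These were 9 of the same and *Hoxa5* in place of *Hoxb5*, with *Hoxb6* at -1.12 and *Hoxb9* at -2.62.

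*Hoxb3* (chromosome 11, 96323326 to 96347930, plus strand), of the hindbrain and upper neck, went from 14.5, 20.7, 8.87 and 11.5 CPM to 7.82, 7.33, 4.54, 4.03 and 4.50 CPM, with 5.42, 6.82, 7.49, 5.66 and 4.44 CPM in *Acod1*-/- mice, a change under HFD of -1.30 ± 0.27 (edgeR adjusted p = 0.00277). Of its exonic bases 52.9% overlap *Hoxb3os* on the opposite strand, and *Hoxb3os* was itself lower, by -0.80 ± 0.23. The strand setting of the counting is not given, so reads of the pair cannot be held apart.

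*Hoxb4* and *Hoxb2* fell by less. *Hoxb4*, a regulator of blood stem cells, measured 13.8, 24.9, 17.1 and 14.6 CPM under ND, 9.75, 8.10, 10.8, 6.85 and 11.5 CPM under HFD and 9.50, 12.8, 14.9, 12.6 and 7.07 CPM in *Acod1*-/- mice (change -0.90 ± 0.24). *Hoxb2*, of the hindbrain, measured 9.31, 14.6, 8.34 and 8.27 CPM, then 5.08, 3.95, 5.11, 4.45 and 8.08 CPM, and 5.70, 9.31, 7.38, 7.19 and 4.78 CPM (change -0.92 ± 0.26). *Hoxb2* also overlaps *Hoxb3os*, with 27.3% of its exonic bases, and it was not called once series entered the model.

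In cluster A, *Hoxa7* (chromosome 6, 52214491 to 52221854, minus strand) fell from 27.7, 34.1, 49.9 and 45.2 CPM to 15.7, 11.8, 21.8, 12.1 and 19.4 CPM, by -1.28 ± 0.36 (edgeR adjusted p = 0.0129). *Hoxa3*, which acts in the pharyngeal arches, fell from 10.7, 7.82, 11.3 and 9.98 CPM to 4.91, 4.74, 4.66, 3.28 and 5.19 CPM, by -1.13 ± 0.30 (edgeR adjusted p = 0.00991). Of the exonic bases of *Hoxa7*, 20.4% overlap *Hoxaas3* on the opposite strand, which fell by 1.04 ± 0.37 on the log2 scale as well. Of those of *Hoxa3*, 25.4% lie opposite *Hoxaas3* and 3 other genes and 8.02% overlap *Gm28308* on the same strand, so reads of *Hoxa3* may be shared in either depot. *Hoxd8* fell by 0.75 ± 0.19, from 27.7 to 50.1 CPM under ND to 16.5 to 25.7 CPM under HFD.

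Macrophage markers moved in the opposite direction in the same libraries: the 5 genes summed to 307 to 643 CPM in ND-fed and to 960 to 3125 CPM in HFD-fed eWAT of WT mice, and all 5 were called higher. Epithelial markers summed to 28.4 to 311 CPM under ND and 3.40 to 20.6 CPM under HFD, and endothelial markers to 573 to 865 CPM and 273 to 504 CPM. Adipose progenitor markers were higher under HFD, at 1227 to 1880 CPM against 891 to 1115 CPM. These 4 sums did not overlap between the diets. The part of these shifts in the lower *Hox* levels was not tested. With series as a term in the model 10 of 22 members were called, all lower, while the share of all genes called went from 51.8% to 34.4%. They were not the same 10, since *Hoxb2* and *Hoxb5* were lost and other members took their places. The first series could give no value for diet since it holds no ND library.

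In iWAT the same diet gave a mixed picture. Of 25 tested members 6 were called, *Hoxb5*, *Hoxc5*, *Hoxc8* and *Hoxc9* higher and *Hoxa3* and *Hoxb4* lower, beside 50.1% of 14801 genes (25.9% higher and 24.2% lower), with a median of 0.02 over the members. *Hoxa3* went from 12.8, 12.3 and 8.87 CPM to 4.75, 3.95, 4.6, 2.65 and 4.04 CPM, by -1.47 ± 0.36 (edgeR adjusted p = 0.00795), and *Hoxb4* from 12, 14.9 and 13.7 CPM to 9.35, 7.67, 9.68, 8.32 and 8.96 CPM. These 2 members fell in both depots.

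*Hoxc5* rose from 12.7, 7.53 and 6.22 CPM to 11, 21.3, 17.8, 19.8 and 21.4 CPM, by 1.09 ± 0.27 (edgeR adjusted p = 0.00822), and iWAT WT HFD 1 overlapped the ND libraries. In eWAT it had 15, 12.2, 12.9 and 14.3 CPM under ND and 6.42, 11.7, 13.1, 11.3 and 17.0 CPM under HFD. *Hoxb5*, described here after its values were seen, rose in iWAT from 5.32, 4.75 and 4.15 CPM to 6.77, 9.86, 10.004, 7.02 and 8.78 CPM and fell in eWAT from 8.11, 13, 10.3 and 6.71 CPM to 2.31, 5.87, 4.70, 6.38 and 6.72 CPM. Its changes were 0.87 ± 0.24 and -0.87 ± 0.30, and the latter was not called with series as a term or without eWAT WT ND 2. *Hoxc8* and *Hoxc9* rose by 0.49 ± 0.20 and 0.69 ± 0.21 in iWAT, and both calls were lost with series as a term. Several marker sums were apart between the diets in the same iWAT libraries. Lymphocyte markers summed to 403 to 616 CPM under ND and 3.25 to 43.9 CPM under HFD, brown adipocyte markers to 163 to 1271 CPM and 47.7 to 93.4 CPM, and mesothelium markers to 1.66 to 7.22 CPM and 0.340 to 1.43 CPM. Higher under HFD were the sums of adipocyte markers (14090 to 16050 against 26780 to 35110 CPM), adipose progenitor markers (324 to 550 against 754 to 1187 CPM) and endothelial markers (413 to 534 against 550 to 889 CPM). Muscle markers overlapped, at 7105, 5.49 and 274 CPM under ND and 18.4 to 298 CPM under HFD, the highest being iWAT WT ND 1. The part of these shifts in the *Hox* values was not tested.

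**Figure D5:**
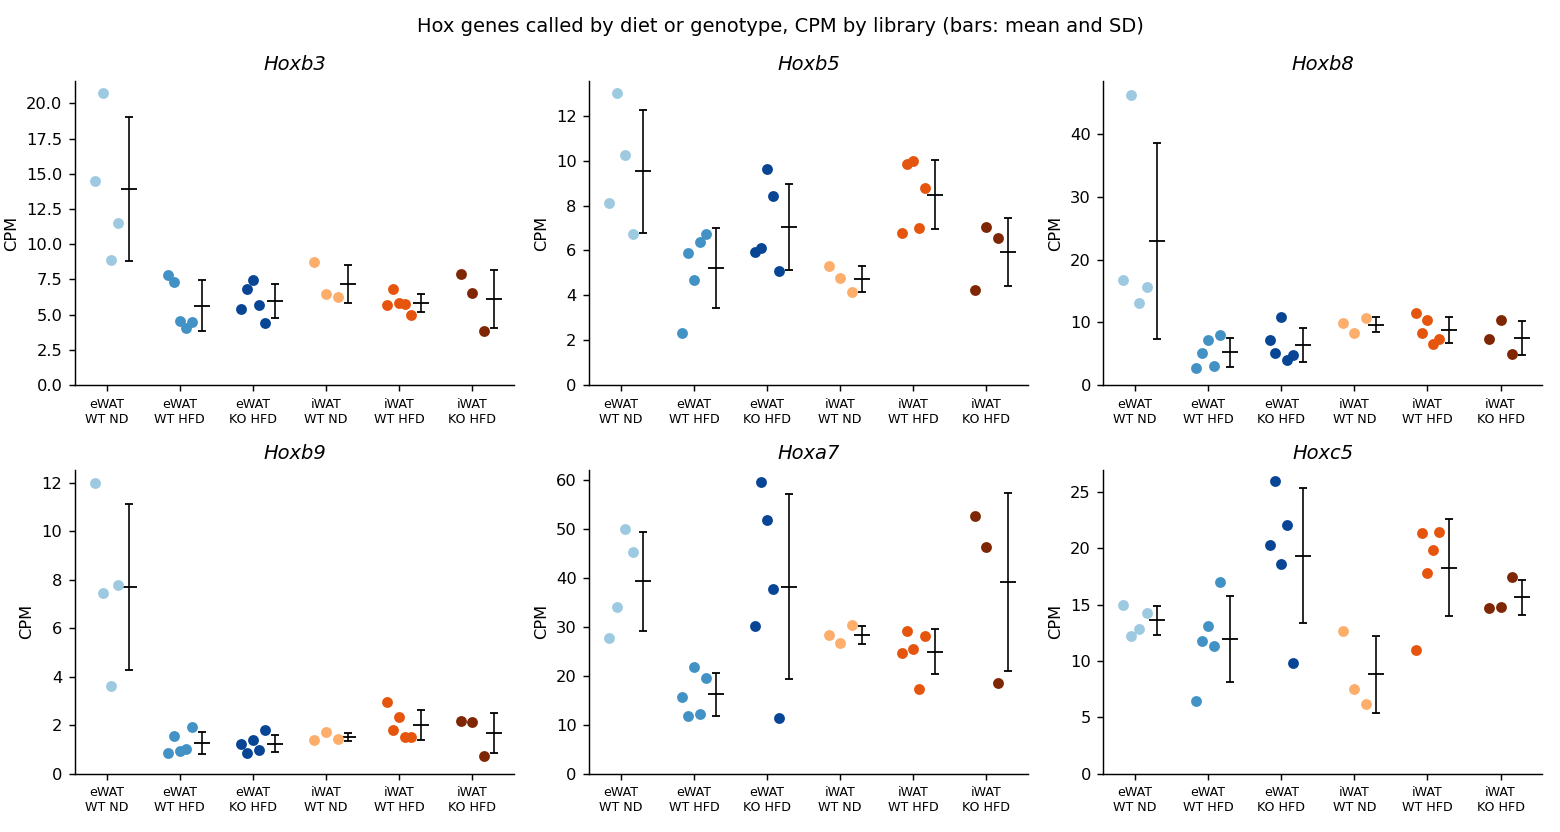
CPM per library, with the mean and SD of each group, of 6 members called by diet or genotype. In eWAT *Hoxb3*, *Hoxb8* and *Hoxb9* of ND-fed WT mice lay above all HFD-fed WT libraries, *Hoxb5* fell in eWAT and rose in iWAT, and *Hoxa7* and *Hoxc5* were higher in eWAT of *Acod1*-/- than of WT mice under HFD.

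The difference between the depots in their response to diet was tested directly, by the interaction of depot and diet in WT mice. It was called for 7 of 24 members, all negative (a lower response in eWAT), beside 29.0% of all genes (14% positive and 15% negative), with a median of -0.94 over the members and -0.04 over all genes. *Hoxb9* had -3.03 ± 0.56 (edgeR adjusted p = 0.000587), *Hoxb8* -2.01 ± 0.57, *Hoxb5* -1.71 ± 0.41, *Hoxb6* -1.44 ± 0.49, *Hoxc5* -1.24 ± 0.40, *Hoxd8* -1.16 ± 0.36 and *Hoxb3* -1.0 ± 0.38. The call of *Hoxb3* was lost in 10 of 34 alternatives and that of *Hoxb6* in 3, whereas the other 5 were called in each. Without the 4 libraries with the highest epididymal or epithelial marker sums 7 members were called, beside 29.6% of all genes, *Hoxa7* and *Hoxc10* taking the places of *Hoxb3* and *Hoxb6*.

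The changed balance was also visible as cluster shares of the summed *Hox* FPKM. Cluster B gave 15.1 to 34.4% in eWAT of ND-fed WT, 10.5 to 20.2% in HFD-fed WT and 6.07 to 13.3% in HFD-fed *Acod1*-/- mice. In iWAT it gave 15.7 to 16.2%, 11.8 to 15.1% and 7.80 to 10.8%, so that the 3 iWAT conditions did not overlap. A share also falls where other members rise, and *Hoxc8* gave 32.7 to 33.3%, 33.7 to 42.1% and 35.2 to 50.1% in these iWAT groups. Shares were not tested, and diet and series largely cannot be told apart. Cluster C gave 40.1 to 59.5% in ND-fed eWAT and 61.9 to 73.6% in eWAT of *Acod1*-/- mice, groups that differ in both diet and genotype, and 50.8 to 69.4% in HFD-fed WT eWAT, which overlapped both. The summed *Hox* FPKM was 167 to 220 in ND-fed eWAT, 85.8 to 158 in HFD-fed WT eWAT and 113 to 243 in *Acod1*-/- eWAT.

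The comparison of genotypes under HFD asked whether the lack of *Acod1* altered the code. In eWAT 3 of 22 members were called, all higher in *Acod1*-/- mice, beside 19.9% of all genes (9.13% higher and 10.8% lower), and the median was 0.40 over the members and 0.04 over all genes. *Hoxa7*, of the upper thorax, measured 15.7, 11.8, 21.8, 12.1 and 19.4 CPM in WT and 30.2, 59.6, 51.8, 37.7 and 11.5 CPM in *Acod1*-/- mice, a difference of 1.24 ± 0.35 (edgeR adjusted p = 0.0359). Of the 5 *Acod1*-/- libraries 4 were above every WT library and eWAT KO HFD 5 was below all of them.

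*Hoxc8* measured 69.2, 115, 233, 158 and 223 CPM in WT and 287, 487, 254, 273 and 157 CPM in *Acod1*-/- eWAT, a difference of 0.87 ± 0.33 (edgeR adjusted p = 0.0978). *Hoxc5* measured 6.42, 11.7, 13.1, 11.3 and 17.0 CPM against 20.3, 25.9, 18.6, 22 and 9.79 CPM, a difference of 0.69 ± 0.26 (edgeR adjusted p = 0.0895). Each of these calls was lost in 16 of 24 alternatives, whereas that of *Hoxa7* was lost in none. The same library, eWAT KO HFD 5, was the low one in all 3 genes.

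eWAT KO HFD 5 was the lowest of its group in 14 of 24 members (58.3%) against 26.2% of all genes. Without it 6 of 22 members were called, where 28.3% of all genes were, and within the first series 7, where 25.9% were. The latter were all higher, namely *Hoxa5*, *Hoxa7*, *Hoxb2*, *Hoxc4*, *Hoxc5*, *Hoxc6* and *Hoxc8*. The second series has 1 library of each genotype and gives no test of its own. Leaving out the 4 libraries with the highest epididymal or epithelial marker sums also gave 7 higher, beside 26.2% of all genes called. These shares of members are near those of all genes, but the members were all higher while the shares of all genes count both directions. The shares of genes called higher are not given here for these fits. With all libraries, 20 of the 22 members had a higher estimate in *Acod1*-/- eWAT. Macrophage markers were lower in *Acod1*-/- eWAT, with 246 to 1005 CPM against 960 to 3125 CPM in WT, and the highest *Acod1*-/- value was that of eWAT KO HFD 5. Their part in the result was not tested.

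In iWAT no member was called by edgeR between genotypes, nor was any gene (0.0% of 14801). In edgeR 8 members had an unadjusted p below 0.05, and DESeq2 called 3. The shares of all genes by these criteria are not given here, so these counts cannot be set against genes at large. iWAT KO HFD 3 (18 weeks, second series) was the lowest of its group in 19 of 24 members (79.2%) against 38.2% of all genes. Without it 8 members were called, all higher, where 17.9% of all genes were, and within the first series 6, *Hoxa3*, *Hoxa5*, *Hoxa7*, *Hoxc4*, *Hoxc8* and *Hoxd10*, where 14.9% were. *Hoxd10* rests on 8.84 CPM in iWAT KO HFD 2, the library with the most epithelial RNA, against 0.591 and 0.145 CPM in the other 2. Feeding time, series and this low library cannot be told apart.

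The interaction of depot and genotype was called by edgeR for none of the 24 members and for 0.00665% of all genes. In edgeR 3 members had an unadjusted p below 0.05, for which the share of all genes is not given here. DESeq2 called no member. *Hoxc10* had the largest estimate, 2.15 ± 0.75, in which eWAT KO HFD 1 at 2.56 CPM was above the other eWAT libraries. The depot differences of *Hoxa9*, *Hoxa10*, *Hoxc10* and *Hoxc4* given above were called in both genotypes under HFD, those of *Hoxc4*, *Hoxa9* and *Hoxa10* in *Acod1*-/- mice with the losses named there.

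Partners of HOX proteins were counted from a list of 9 cofactors of the TALE class, of which 8 were tested. Averaged over conditions 3 were higher in eWAT and none lower, where 15.6% and 11.8% of all genes were, with a median of 0.26 against 0.0012 for all genes. Among the 3 were *Meis1*, by 0.85 ± 0.16, and *Meis3*, by 0.35 ± 0.15, which encode proteins that bind DNA together with HOX. Under HFD, *Meis1* fell in eWAT by 1.05 ± 0.20 on the log2 scale. In iWAT *Pbx3* rose and *Pbx2* and *Pknox2* fell. In eWAT of *Acod1*-/- mice *Meis1* was higher by 0.64 ± 0.19 and *Pknox2* was lower. The cofactors called by diet were 2 of 8 in eWAT and 4 of 8 in iWAT, beside 51.8% and 50.1% of all genes, and those called by genotype in eWAT were 2 of 8, beside 19.9%.

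Of 23 Polycomb and Trithorax genes, which keep *Hox* genes silent or active, 7 were lower in eWAT and none higher, where 11.8% of all genes were lower and 15.6% higher, with a median of -0.10. Among them were *Cbx7* (-0.57 ± 0.16), the H3K27 methyltransferase *Ezh2* (-0.37 ± 0.11) and the activator *Kmt2a* (-0.32 ± 0.10). By diet 14 of 23 were lower under HFD in each depot, with 1 higher in eWAT, where 26.9% of all genes were lower in eWAT and 24.2% in iWAT. *Cbx7* fell most, by 1.60 ± 0.28 in eWAT and 1.94 ± 0.22 in iWAT on the log2 scale. In eWAT of *Acod1*-/- mice *Phc1* was higher and no other was called, beside 19.9% of all genes, and in iWAT none was.

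Other patterning genes used as depot markers were counted as well: of 20 listed, 15 were tested, 5 higher and 4 lower in eWAT, where 15.6% of all genes were higher and 11.8% lower, with a median of -0.10. *Wt1*, which is also a mesothelium marker, measured 6.00 to 18.2 CPM in eWAT and at most 0.0514 CPM in iWAT, and *Tcf21*, of visceral mesenchyme, 2.70 to 8.31 CPM and at most 0.315 CPM. *Tbx15*, a T-box gene of subcutaneous fat, and *Shox2*, of the proximal limb, were lower by -6.57 ± 0.31 and -5.12 ± 0.35. These 4 genes were called in every condition, as *Hoxa10* and *Hoxc10* were, and *Tbx15* held -6.58 ± 0.57, -7.41 ± 0.53 and -5.71 ± 0.50 in ND-fed WT, HFD-fed WT and HFD-fed *Acod1*-/- mice. *Wt1* and *Tcf21* passed the filter only through eWAT, so some difference between depots was fixed for them by the filter, as for *Hoxa10* and *Hoxc10*. Within eWAT 11 of the 20 listed genes passed, and whether *Tbx15* and *Shox2* were among them is not given here.

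Among 47 other genes annotated inside the clusters, mostly non-coding, 6 passed the filter, with a median of 0.18. *Hoxd3os1* was higher in eWAT by 0.84 ± 0.19 and *Gm11539* lower by -0.50 ± 0.18, so that 2 of 6 were called, beside 27.3% of all genes. *Hotairm1* (cluster A), *Hoxaas3* and *Hoxb3os* were lower under HFD in eWAT, by -1.24 ± 0.31, -1.04 ± 0.37 and -0.80 ± 0.23, beside the lower *Hoxa3*, *Hoxa7* and cluster B transcripts.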

How the data were processed

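RNA was taken from 14 eWAT and 11 iWAT samples and sequenced as directional mRNA libraries. Per the labels and the study's methods, the authors trimmed reads with cutadapt, discarded those under 18 bases, removed contaminants and aligned the rest with STAR to GRCm38 (mm10 in the labels). The counting program and its strand setting are not given in the sources used here. The deposited counts are reads per gene. The authors also deposited FPKM values relative to all counted reads and the cDNA length behind them, a further deposited column in bases. Reads on no gene (6.41 to 11.9%) and ambiguous reads (1.52 to 2.07%) at the foot of each file were left out of library sizes. Columns belonging to no labelled sample numbered 0.

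Levels between genes were read from the authors' FPKM, and a gene's level across libraries as CPM after TMM scaling over all 25 libraries. Counts were tested with edgeR 4.0.16 (quasi-likelihood, TMM, mean of at least 1 CPM over the libraries fitted) in R 4.3.3. A fit of 6 groups gave the depot differences and interactions, and 1 fit per depot gave diet and genotype. Adjustment was by Benjamini-Hochberg over all genes at 0.1, the standard error is the log2 change over the square root of F, and detection meant more than 3 counts. Scripts were tested on simulated data. DESeq2 1.42.0, other filters, scalings and sample sets were alternatives. P-values measure the spread between libraries, and depth limits only the rarest members, since counts of 3 or fewer cannot be told from none.

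Named by rule were all members, sample by sample those with the largest called depot differences per cluster and the 10 with the smallest adjusted p by diet or genotype. Some items within the rule are not reported here. The members and all gene lists were chosen with earlier results of these data known. Correlations of deviations between libraries of equal number ran from -0.179 to 0.489. Libraries of unequal number were not correlated for comparison, so these values cannot decide whether equal numbers pair the samples. No 2 libraries of a group agreed within sampling noise (42 pairs). Gene positions and overlaps came from the GENCODE vM21 annotation, and promoters from RefSeq.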

Additional observations from a re-analysis of the deposited data

Results flagged for a closer look

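Of 100 groups of 4 or 5 libraries examined (1 member in 1 group), 12 held a library that lay far from the rest of its group. The rule would mark about 1 in 20 if values were normal and independent, but the members share libraries. The share over all genes was not counted, so whether 12 is more than usual was not tested. In eWAT of ND-fed WT mice, eWAT WT ND 2 stood high for *Hoxb2* (14.56 CPM), *Hoxb6* (27.37 CPM), *Hoxb8* (46.34 CPM) and *Hoxd9* (14.94 CPM), and eWAT WT ND 3 stood high for *Hoxc4* (29.77 CPM). eWAT WT ND 2 also carried the most epididymal RNA (1155 CPM over 7 genes), and the part of that RNA in these values was not tested. In eWAT of HFD-fed WT mice, library 5 was high for *Hoxb2* (8.083 CPM), library 3 was high for *Hoxd9* (9.04 CPM) and library 4 was low for *Hoxa3* (3.283 CPM). eWAT KO HFD 1 was high for *Hoxc10* (2.562 CPM). In iWAT of HFD-fed WT mice, library 3 was high for *Hoxa4* (4.774 CPM), library 2 was high for *Hoxc9* (22.39 CPM) and library 5 was low for *Hoxd10* (0.1601 CPM).

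The effect of diet differed between depots, by the interaction term in edgeR, for *Hoxb9* (-3.03 on the log2 scale, eWAT minus iWAT), *Hoxb8* (-2.01), *Hoxb5* (-1.71), *Hoxb6* (-1.44), *Hoxc5* (-1.24), *Hoxd8* (-1.16) and *Hoxb3* (-1.0). *Hoxb5* fell in eWAT and rose in iWAT, each change being called in its own depot.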

How the results depend on the processing

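Of 55 calls of a member in a comparison, 37 held in every alternative, 18 were lost in at least 1 and 0 reversed. With at least 1 CPM required in every library, 4 members were called between depots in the average over conditions (7 in the text) and 1 in *Acod1*-/- mice (4 in the text), since that filter removes *Hoxa9*, *Hoxa10* and *Hoxc10*. A fit of the 2 *Acod1*-/- groups alone called 1, *Hoxc10*. Without the 4 libraries with the highest epididymal or epithelial marker sums, an alternative chosen after these values were seen, 10 were called between depots in HFD-fed WT mice (6 in the text) and 7 between genotypes in eWAT (3 in the text). For genotype in eWAT, 1 member was called at an adjusted p below 0.05, with no filter, with series as a term, with the replicate block and with only the 2 groups fitted, 5 by DESeq2, 7 within the first series (chosen after seeing the data), and 1 to 6 on leaving out a library, each of eWAT WT ND 1, 3 and 4, WT HFD 1, 2 and 4 and KO HFD 1 to 4 giving 1 and KO HFD 5 giving 6. For genotype in iWAT the counts were 3 by DESeq2, 6 within the first series and 0 to 8 on leaving out a library, 8 without iWAT KO HFD 3. Leaving out 1 library moved no other count by over 1.5 times. With series as a term the 6 iWAT diet calls were 2 higher and 4 lower, against 4 and 2 in the text. Whether equal numbers pair the samples is not known. A replicate block gave 1 call for depot by genotype (0 in the text) and 4 for diet in iWAT. With it *Hoxa9* was not called between depots in *Acod1*-/- mice (edgeR adjusted p = 0.127). The cause of these shifts was not tested except for the filter.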
